A study of Mus musculus with 4 samples.

Results

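Adhesion G protein-coupled receptors (adhesion GPCRs) were examined in RNA-seq counts from splenic CD4+ T cells, together with *Ccdc102a*, the gene beside *Adgrg5* on mouse chromosome 8. The set held 9 genes of 55367 in the count tables, 8 of them receptor genes, matched by gene symbol. The list was chosen with results from these same libraries known: levels in counts per 1000000 (CPM) and the difference between genotypes had been seen when the genes were selected. The genotype differences of the 9 genes are therefore given as a description, with no p-value or call. The SEs and intervals printed beside them come from these same libraries and take no account of the selection. They describe spread and counting error, and cannot serve as a test of a difference.

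The mice were C57BL/6, and 4 libraries were made: 2 carry the label wild type (WT), and the other 2 are labelled as a *Satb1* conditional knockout (cKO). In the study's model, *Satb1* alleles flanked by recombination sites (*Satb1* F/F) are cut by Cre recombinase under *Thpok-cre*, a driver that becomes active once thymocytes commit to the CD4 lineage, so that all CD4+ T cells, regulatory T (Treg) cells among them, are targeted. The cells were sorted and given no treatment, and neither the age nor the sex of the mouse behind a library is in the labels. The study calls the replicates biological, but the labels do not say whether each library came from a mouse of its own, so an error over 2 libraries measures only the spread between these samples.

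An adhesion GPCR carries a long extracellular region that binds proteins on other cells or in the matrix, joined to a receptor core that spans the membrane and couples to G proteins. Most are cut into both pieces at a site just outside the membrane while still inside the cell, and the pieces stay together at the surface. Removal of the outer piece exposes a short tethered peptide that activates the core, and the Gα12/13 proteins and the GTPase RhoA are well-known partners downstream. In blood cells, CD97 (*Adgre5*) is found on nearly all leukocytes, GPR56 (*Adgrg1*) marks cytotoxic lymphocytes in human, and GPR97 (*Adgrg3*) is best known from granulocytes.

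Total gene counts ran from 4495902 to 6555699 per library, and between 59.4% and 64.5% of uniquely placed reads fell on no annotated gene. *Satb1* itself had 5677 and 4390 counts in the libraries labelled WT and 4958 and 3986 in those labelled cKO, a log2 fold change of -0.05 with an SE of 0.12 (edgeR adjusted p = 0.877), so the targeted gene does not part the labels. *Xist* had 5447 and 4235 counts against 9 and 6, so a sex-linked pattern goes with the genotype label and cannot be told apart from it in any difference below. T cell identity genes were high in every library: the 6 CD4 T cell markers (*Cd3d*, *Cd3e*, *Cd3g*, *Cd4*, *Cd5* and *Trac*) summed to between 4566 and 5340 CPM. Their log2 fold changes lay between -0.09 and 0.33.

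Of the 9 genes, 3 were far lower in the libraries labelled cKO: *Adgrb2*, *Adgrg5* and *Ccdc102a*. The 2 abundant receptor genes, *Adgre5* and *Adgrl1*, had log2 fold changes of -0.19 and -0.02, and the remaining 4 were near or at the limit of detection. Levels are CPM, with library sizes adjusted by TMM factors (trimmed mean of M values), and 3 counts, taken as the floor, correspond to between 0.459 and 0.672 CPM. In bulk RNA, fewer cells that carry a transcript and less transcript per cell cannot be told apart.

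*Ccdc102a* and *Adgrg5* lie head to head. In GENCODE M21 on GRCm38 (mm10), *Ccdc102a* (ENSMUSG00000063605.5) occupies chromosome 8 from 94902869 to 94918098 on the minus strand, and *Adgrg5* (ENSMUSG00000061577.12) occupies 94923694 to 94943280 on the plus strand. Their start sites are 5596 bases apart, and transcription runs outward from them. *Adgrb2* (ENSMUSG00000028782.14) lies on another chromosome, chromosome 4, from 129984870 to 130022633 on the plus strand. The promoter windows of these 3 genes are shown because they are the members with the large differences; each runs from 250 bases before to 50 bases after a RefSeq start on GRCm38.p6, 5′ to 3′ on the strand of the gene. Capitals mark matches, on either strand, to 5 short cores. TGTGGT is bound by RUNX factors and GGAAGT by ETS factors. CTTTGA is bound by TCF/LEF factors, AGATAA by GATA factors and GGGCGG by SP and KLF factors, and none of the marked matches overlap. The windows lie at chr8:94918049-94918348 (*Ccdc102a*), chr8:94923444-94923743 (*Adgrg5*) and chr4:129984620-129984919 (*Adgrb2*).
Ccdc102a: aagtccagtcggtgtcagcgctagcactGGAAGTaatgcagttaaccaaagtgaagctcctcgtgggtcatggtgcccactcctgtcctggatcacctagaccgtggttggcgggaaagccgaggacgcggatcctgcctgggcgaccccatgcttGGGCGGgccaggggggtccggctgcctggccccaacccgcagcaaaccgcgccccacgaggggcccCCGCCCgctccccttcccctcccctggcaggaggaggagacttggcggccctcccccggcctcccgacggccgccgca
Adgrg5: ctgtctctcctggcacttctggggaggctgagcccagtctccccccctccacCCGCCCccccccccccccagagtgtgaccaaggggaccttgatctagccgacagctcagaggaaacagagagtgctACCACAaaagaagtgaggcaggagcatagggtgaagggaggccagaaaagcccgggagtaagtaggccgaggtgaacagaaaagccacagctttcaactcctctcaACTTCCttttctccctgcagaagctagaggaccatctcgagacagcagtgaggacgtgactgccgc
Adgrb2: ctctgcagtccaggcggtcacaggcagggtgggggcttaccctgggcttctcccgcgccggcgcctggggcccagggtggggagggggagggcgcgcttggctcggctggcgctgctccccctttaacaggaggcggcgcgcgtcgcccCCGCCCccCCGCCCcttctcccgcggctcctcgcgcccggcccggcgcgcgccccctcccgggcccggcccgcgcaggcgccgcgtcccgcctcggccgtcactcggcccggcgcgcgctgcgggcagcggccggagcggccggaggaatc

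All 3 windows held the GGGCGG core and had a GC content above the median promoter. GC content was 69.3% for *Ccdc102a*, 59.0% for *Adgrg5* and 81.7% for *Adgrb2*, against a median of 52.7% over 32841 RefSeq promoter windows of the same length. CpG dinucleotides numbered 23, 7 and 45, with a median of 7 over all windows. The GGGCGG core occurred in all 3 windows, 2 times in *Ccdc102a*, 1 time in *Adgrg5* and 2 times in *Adgrb2*, and in 35.7% of all promoters. It was also in the windows of *Adgrl1*, 2 times, and *Adgrg3*, 1 time. The GGAAGT core occurred 1 time in each of *Ccdc102a* and *Adgrg5* and in 23.8% of all promoters. The TGTGGT core was present 1 time in *Adgrg5*, starting 122 bases before its start site (-122), and in 16.8% of all promoters. Neither CTTTGA, found in 16.0% of all promoters, nor AGATAA, found in 11.2%, was in any of the 3 windows. Of the 9 members, 8 had a window in the RefSeq table, and *Adgre5* had none.

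*Adgrg5* encodes an adhesion GPCR of group G found in immune cells. Counts were 140 and 82 in the libraries labelled WT and 7 and 3 in those labelled cKO, which is 21.4, 18.4, 1.33 and 0.638 CPM. Both libraries labelled WT lay far above both labelled cKO, and cKO 2 was at the floor. The mean was 19.9 ± 2.15 CPM (SD, n = 2) in WT and 0.986 ± 0.492 CPM (SD, n = 2) in cKO. This is a log2 fold change of -4.28 (SE 0.35), or 19.5-fold lower with a 95% interval of 11.3 to 33.7. Here, and for *Ccdc102a* and *Adgrb2* below, the interval is from the contrast on which the gene was selected. Its distance from no change is therefore not read as a test. Counting error alone, on pooled counts of 222 and 10, gave a WT to cKO ratio of 20.1 with an exact 95% interval of 10.7 to 42.5.

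*Ccdc102a* encodes a coiled-coil protein and is not a receptor. Its counts were 165 and 126 under the WT label and 23 and 10 under the cKO label, or 25.2, 28.2, 4.38 and 2.13 CPM. The groups did not overlap, and unlike *Adgrg5* the gene stayed above the floor in both libraries labelled cKO. The mean was 26.7 ± 2.12 CPM (SD, n = 2) in WT and 3.25 ± 1.60 CPM (SD, n = 2) in cKO, a log2 fold change of -3.003 (SE 0.29). This is 8.02-fold lower, with a 95% interval of 5.07 to 12.7. For *Ccdc102a* and for *Adgrg5*, cKO 1 was above cKO 2, and the intervals of the log2 fold changes were -3.67 to -2.34 and -5.08 to -3.49.

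*Adgrb2* encodes BAI2, a receptor of the brain-specific angiogenesis inhibitor group that is known mainly from neurons. It had 91 and 67 counts in the libraries labelled WT and 4 and 3 in those labelled cKO, or 13.9, 15.0, 0.762 and 0.638 CPM. Each library labelled cKO stood at or just above the floor. The mean was 14.5 ± 0.773 CPM (SD, n = 2) in WT and 0.700 ± 0.0881 CPM (SD, n = 2) in cKO. This is a log2 fold change of -4.31 (SE 0.37), or 19.9-fold lower with a 95% interval of 11.2 to 35.4. On pooled counts of 158 and 7, the ratio was 20.4 with an exact 95% interval of 9.68 to 51.6.

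**Figure D1:**
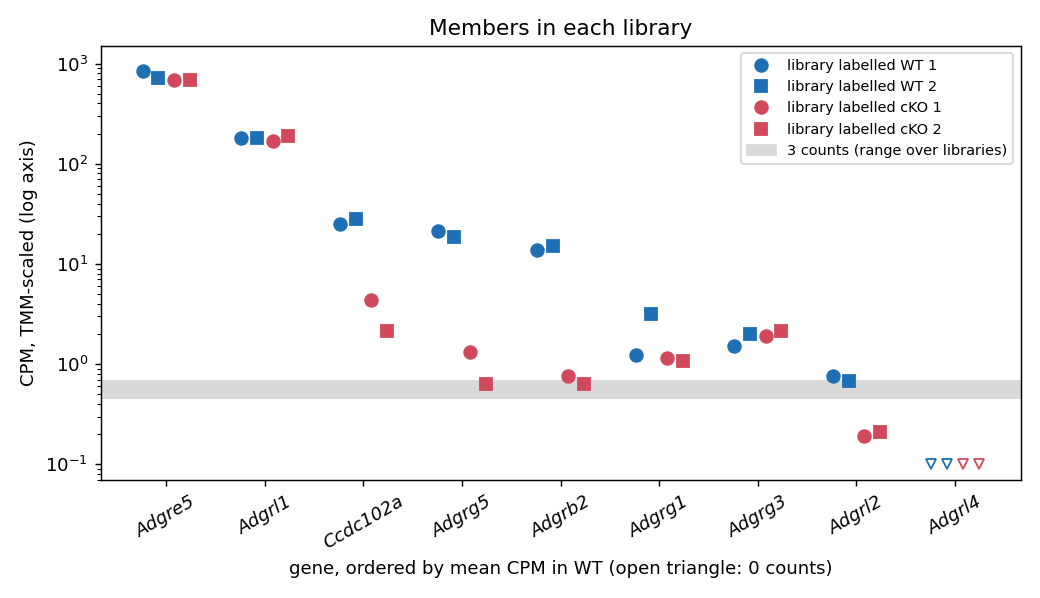
TMM-scaled CPM of the 9 genes in each library on a log axis, ordered by the WT mean; blue marks libraries labelled WT, red those labelled cKO, circles replicate 1 and squares replicate 2. *Ccdc102a*, *Adgrg5* and *Adgrb2* lay between 13.9 and 28.2 CPM in WT and between 0.638 and 4.38 CPM in cKO, and *Adgre5* and *Adgrl1* had the highest levels in every library; the grey band is the CPM of 3 counts.

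Of the 9 genes, 6 passed the low-count filter and were in the fit across all genes. Over all 12403 tested genes the edgeR quasi-likelihood test, with adjusted p below 0.05 as the threshold, called 533, or 4.30%, with 291 (2.35%) above and 242 (1.95%) below the WT level. Since the members were selected on this same contrast, their own calls are not given. *Adgrb2*, *Adgrg5* and *Ccdc102a* stood at places 10, 12 and 28 from the lowest fitted log2 fold change of all tested genes. Their mean CPM over the libraries was above that of 21.6%, 27.2% and 33.8% of tested genes.

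**Figure D2:**
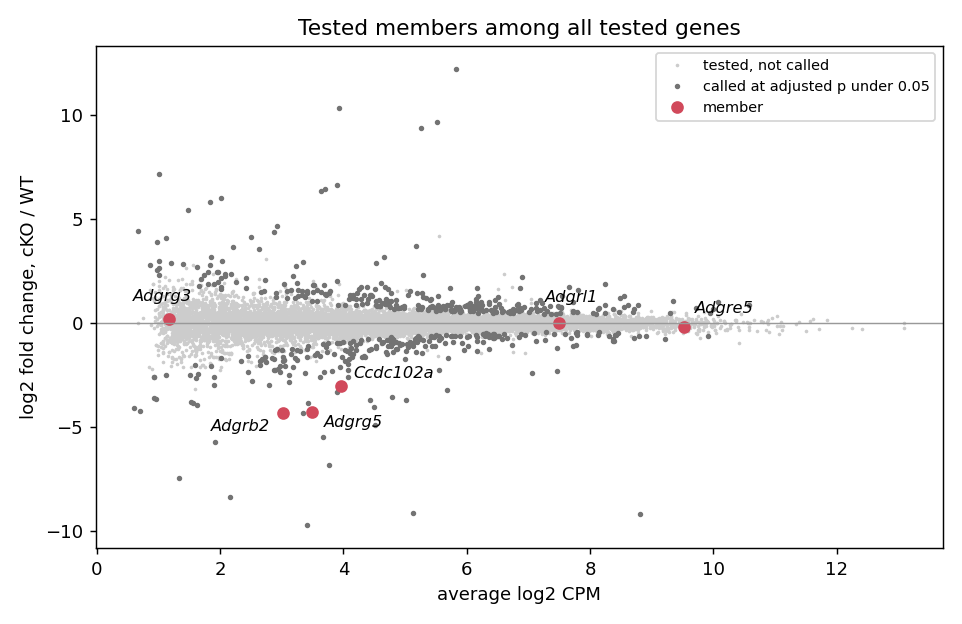
Log2 fold change of cKO over WT against average log2 CPM for 12403 tested genes; light grey points were not called, dark grey points were called in the edgeR test, and red points are the 6 tested members. *Adgrb2*, *Adgrg5* and *Ccdc102a* lie at -4.31, -4.28 and -3.003, and *Adgre5*, *Adgrl1* and *Adgrg3* lie near 0.

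*Adgre5*, the gene of CD97, had by far the highest level per length of the adhesion GPCR genes in the count tables, at 183 to 226 reads per kilobase of exonic length, scaled to library size as CPM is (RPKM). CD97 binds the complement regulator CD55 and also CD90 (*Thy1*). Its gene (ENSMUSG00000002885.14, chromosome 8, 83723251 to 83741326, minus strand) had 5556, 3233, 3609 and 3238 counts in WT 1, WT 2, cKO 1 and cKO 2, or 849.8, 724, 688 and 688 CPM. The libraries labelled cKO were nearly equal and lay below both labelled WT, which themselves stood apart. The mean was 787 ± 88.7 CPM (SD, n = 2) in WT and 688 ± 0.398 CPM (SD, n = 2) in cKO. The fitted log2 fold change, -0.19 (SE 0.12), had a 95% interval of -0.46 to 0.07. Of its 3757 exonic bases, 895 (23.8%) overlap *Ddx39* on the opposite strand, and reads from the shared bases cannot be assigned to either gene without strand.

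*Adgrl1*, the gene of latrophilin 1, a receptor for teneurins, neurexins and FLRT proteins that is best known from synapses, had the next highest level among the members. It lies on the same chromosome (ENSMUSG00000013033.16, 83900105 to 83941954, plus strand), its start 158779 bases from that of *Adgre5*. It had 1182, 813, 892 and 886 counts, or 181, 182, 170.0 and 188 CPM, and the groups overlapped. The mean was 181 ± 0.966 CPM (SD, n = 2) in WT and 179 ± 13.0 CPM (SD, n = 2) in cKO. The fitted log2 fold change was -0.02 (SE 0.10), with a 95% interval of -0.24 to 0.21.

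*Adgre5* and *Adgrl1* together made up 96.4% and 95.9% of the counts of the 8 receptor genes in the libraries labelled WT, and 99.4% and 99.5% in those labelled cKO. The share of *Adgrl1* alone was 16.9% and 19.3% against 19.7% and 21.4%. The summed level of the 8 receptor genes was 1069 and 946 CPM in WT and 863 and 881 CPM in cKO. *Adgrg5* and *Adgrb2* fell from a low level, so the summed level is set mostly by *Adgre5*.

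*Adgrg1* and *Adgrg3* follow *Adgrg5* on the same strand, with 31471 bases between *Adgrg5* and *Adgrg1* and 3475 bases between *Adgrg1* and *Adgrg3*. *Adgrg3* (ENSMUSG00000060470.7, 95017692 to 95045250) had 10, 9, 10 and 10 counts, or 1.53, 2.02, 1.91 and 2.13 CPM. Its groups overlapped, with means of 1.77 ± 0.344 CPM (SD, n = 2) in WT and 2.02 ± 0.156 CPM (SD, n = 2) in cKO. The fitted log2 fold change was 0.21 (SE 0.45), with a 95% interval of -0.81 to 1.23. *Adgrg1* (ENSMUSG00000031785.16, 94974751 to 95014217) had 8, 14, 6 and 5 counts, or 1.22, 3.14, 1.14 and 1.06 CPM, and did not pass the filter. WT 2 stood above the rest, and WT 1 was close to the libraries labelled cKO. Without the filter its fitted log2 fold change was -0.90 with a 95% interval of -2.10 to 0.30.

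The remaining latrophilin and endothelial receptor genes were barely present. *Adgrl2* (ENSMUSG00000028184.12, chromosome 3, 148815583 to 148990555), a latrophilin, had 5 and 3 counts in WT and 1 and 1 in cKO. On pooled counts of 8 and 2 the WT to cKO ratio was 3.62 with an exact 95% interval, for counting error alone, of 0.722 to 35.0. *Adgrl4* (ENSMUSG00000039167.11, chromosome 3, 151437887 to 151545086), the gene of the endothelial receptor ELTD1, had 0 counts in every library. That allows up to 0.459 CPM in WT 1 and up to 0.672 CPM in WT 2, for counting error alone. Of the 6 endothelial genes on the marker list, *Kdr* and *Emcn* were also at 0 in all 4 libraries, *Tek* had 1 count in all, *Egfl7* had 4, 0, 2 and 2 counts, and *Cdh5* had 9 and 7 counts in WT and 3 and 0 in cKO. The endothelial list summed to between 319 and 377 CPM, almost all of it from *Pecam1*, which T cells also express.

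The order of levels per length differed between the labels only below *Adgrl1*. In RPKM, the WT libraries ran from 193 to 226 for *Adgre5*, 21.1 to 21.2 for *Adgrl1*, 10.1 to 11.3 for *Ccdc102a*, 5.86 to 6.83 for *Adgrg5* and 2.15 to 2.31 for *Adgrb2*. None of these ranges touched. *Adgrg1*, from 0.226 to 0.579 RPKM, and *Adgrg3*, from 0.222 to 0.292 RPKM, did not differ beyond their spread, and *Adgrl2* lay below both at 0.0473 to 0.0539 RPKM. In the libraries labelled cKO, *Ccdc102a* had 0.849 to 1.75 RPKM, and *Adgrg5*, at 0.203 to 0.425 RPKM, now overlapped *Adgrg3* (0.276 to 0.308) and *Adgrg1* (0.196 to 0.211). *Adgrb2* came below all of these at 0.0983 to 0.117 RPKM.

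To see whether the difference at *Adgrg5* and *Ccdc102a* extended along the chromosome, genes whose start lies within 500 kb of the *Adgrg5* start were examined. The window held 34 further genes, 16 of which were tested. Of these 16, 0 were called in the edgeR test, with 2 at an unadjusted p under 0.05 and 0 called by DESeq2. Over all tested genes 4.30% were called, so a count of 0 among these 16 is near the background. Their log2 fold changes ran from -0.34 to 0.80 with a median of 0.06, against -0.0015 over all tested genes, and 5 were below 0 and 11 above. The nearest tested gene on the side of *Ccdc102a* was *Dok4*, an adaptor of receptor tyrosine kinases, with its start at -47.4 kb from that of *Adgrg5*. *Dok4* had 15, 6, 21 and 12 counts and a log2 fold change of 0.80 with an SE of 0.46 (edgeR adjusted p = 0.390). When libraries were left out singly, *9330175E14Rik* was called higher without cKO 1, and *Ccl22* was called higher and *Nlrc5* lower without cKO 2. These 3 genes are named because their calls were seen.

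**Figure D3:**
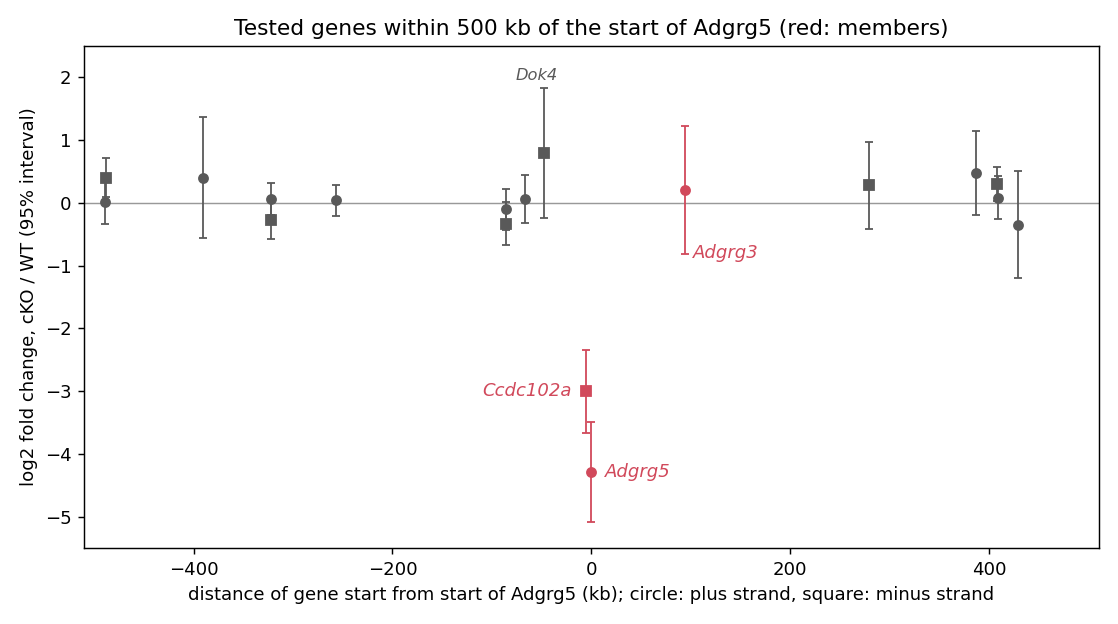
Log2 fold change of cKO over WT, with 95% intervals, for tested genes by the distance of their start from that of *Adgrg5*; red marks members, circles plus-strand and squares minus-strand genes. *Ccdc102a* and *Adgrg5* lie at -3.003 and -4.28, and the tested genes around them lie between -0.34 and 0.80; 1 tested gene is not drawn.

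The tested genes next to the other members were looked up after their own values had been seen. Beside *Adgrb2* these were the pseudogene *Gm12966*, at -85.8 kb, with a log2 fold change of -0.33 (SE 0.13, edgeR adjusted p = 0.201), and *Pef1*, a calcium-binding protein gene at 118 kb, with -0.0007 (SE 0.14, edgeR adjusted p = 0.999). Beside *Adgre5* was *Ddx39*, an RNA helicase gene, with -0.30 (SE 0.10, edgeR adjusted p = 0.168). None of these 3 was called.

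Outside the members, the tested genes nearest to *Adgrg5* in their pattern over the 4 libraries were *Gm12901*, *Gzma* and *Pdlim4*. Likeness was measured as the root mean square distance between log2 CPM values centred on each gene's mean. The distance was 0.106 for *Gm12901*, an annotated pseudogene on chromosome 4, 0.214 for *Gzma*, the gene of the cytotoxic protease granzyme A, and 0.274 for *Pdlim4*, the gene of an actin-associated LIM protein. Among the members, *Adgrb2* came nearest with 0.248, between *Gzma* and *Pdlim4*, followed by *Ccdc102a* with 0.504, and *Adgre5*, *Adgrl1* and *Adgrg3* lay between 1.89 and 2.08. *Gzma* had 108 and 90 counts in WT and 7 and 2 in cKO, a log2 fold change of -4.30 (SE 0.40). With 4 libraries this likeness mostly restates the size of the genotype difference.

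The rest of the receptor family was then compared. Of 22 further adhesion GPCR genes, 7 had 0 counts in every library and 4 were tested. Of these 4, 0 were called in the edgeR test, with 2 at an unadjusted p under 0.05 and 0 called by DESeq2. Over all tested genes 4.30% were called, so a count of 0 among 4 genes is near the background. All 4 had a log2 fold change above 0, with a median of 0.38. *Celsr1*, the gene of a planar cell polarity cadherin, had 1371, 846, 1294 and 1220 counts, and at 17.2 to 23.6 RPKM its level was close to that of *Adgrl1*. Its libraries did not overlap, with a log2 fold change of 0.34 (SE 0.10, edgeR adjusted p = 0.102); it was called when either library labelled cKO was left out. *Celsr2* lay at 18.4 CPM in WT and 20.7 CPM in cKO (0.17, SE 0.17, edgeR adjusted p = 0.658). *Adgre1*, the macrophage gene of the F4/80 antigen, had 11, 12, 27 and 16 counts (1.01, SE 0.43, edgeR adjusted p = 0.245), and *Adgre4*, another myeloid receptor gene, had 4, 2, 20 and 9 and was not tested.

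**Figure D4:**
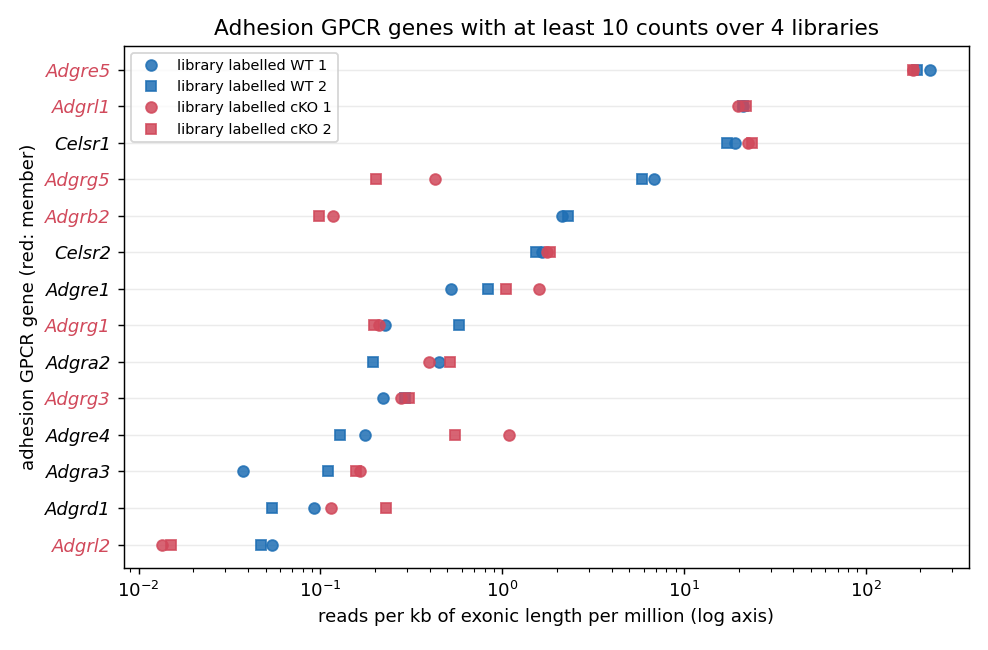
Level of 14 adhesion GPCR genes with at least 10 counts over the 4 libraries, in RPKM on a log axis, ordered by the WT mean; blue marks libraries labelled WT, red those labelled cKO, and red names are members. *Adgre5* stood between 183 and 226 RPKM in every library, and *Adgrg5* and *Adgrb2* were lower in the libraries labelled cKO.

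Known extracellular partners of these receptors differed between the labels in both directions. Of 20 partner genes, 8 were tested and 4 were called in the edgeR test, 3 higher and 1 lower, against 4.30% of all tested genes. The median log2 fold change of the 8 was 0.61. *Thy1*, the gene of the CD97 partner CD90, fell from 1171 ± 18.5 CPM (SD, n = 2) in WT to 761 ± 12.3 CPM (SD, n = 2) in cKO, a log2 fold change of -0.62 (SE 0.11, edgeR adjusted p = 0.0169). *Cd55*, the gene of the principal CD97 ligand, had 58.1, 65.9, 52.0 and 57.6 CPM and a log2 fold change of -0.17 (SE 0.13, edgeR adjusted p = 0.505).

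The tetraspanin genes *Cd81* and *Cd9*, whose products form complexes with GPR56, both rose. *Cd81* went from 50.8 ± 2.51 to 89.96 ± 19.9 CPM (SD, n = 2), a log2 fold change of 0.82 (SE 0.16, edgeR adjusted p = 0.0243). *Cd9* went from 66.4 ± 0.152 to 101 ± 11.5 CPM (SD, n = 2), or 0.61 (SE 0.12, edgeR adjusted p = 0.0265). *Itgav*, the gene of an integrin subunit bound by CD97, rose by 0.74 (SE 0.13, edgeR adjusted p = 0.0169), while *Itgb1*, an integrin gene with the highest level on the list after *Thy1*, had 0.32 (SE 0.24, edgeR adjusted p = 0.529). The libraries labelled cKO stood apart for *Itgb1*, at 228 and 433 CPM against 278 and 250 CPM in WT, and without cKO 1 it was called higher, at 0.71 (edgeR adjusted p = 1.6e-05). Without WT 2, 0 of the partner genes was called, and without WT 1 the calls of *Thy1* and *Cd9* were lost.

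Genes of the signalling layer mostly showed small differences. The list held 30 genes of G proteins, exchange factors and kinases of the RhoA pathway, arrestins and receptor kinases. Of these, 29 were in the count tables, 26 were tested and 2 were called in the edgeR test, both higher. Over all tested genes 4.30% were called, so a count of 2 among 26 genes is near the background. The median log2 fold change of the 26 was 0.07. *Gna12*, the gene of the Gα12 subunit, rose from 35.9 ± 1.08 to 53.8 ± 4.52 CPM (SD, n = 2), a log2 fold change of 0.58 (SE 0.13, edgeR adjusted p = 0.0438). *Arhgef12*, an exchange factor gene that links Gα12/13 to RhoA, rose from 22.5 ± 2.996 to 38.8 ± 1.29 CPM (SD, n = 2), or 0.77 (SE 0.15, edgeR adjusted p = 0.0263). Neither was called by DESeq2 or without WT 2, and *Gna12* was not called without WT 1. *Gna13* had 0.17 (SE 0.09, edgeR adjusted p = 0.358), and the most abundant members, *Arhgef1* at 1922 CPM and *Gnai2* at 954 CPM in WT, had -0.06 and -0.07, with edgeR adjusted p of 0.843 and 0.801.

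Marker genes of other cell types also differed between the labels, and their counts stand against 1.95% of all tested genes called lower and 2.35% called higher. Of 8 NK and cytotoxic genes, 7 were tested and 5 were called lower in the edgeR test (*Gzma*, *Gzmb*, *Nkg7*, *Eomes* and *Prf1*), and the list summed to 219 and 203 CPM in WT and 63.8 and 68.0 CPM in cKO. The other tested genes of this list, *Klrg1* and *Klrb1c*, overlapped between the labels and were not called. *Klrg1* had 45, 24, 27 and 42 counts with a log2 fold change of 0.17, and *Klrb1c* had 24, 7, 11 and 2 counts with -1.07. The defining NK receptor gene *Ncr1* had 2, 0, 3 and 0 counts. Of the CD8 genes, *Cd8b1* was called lower and *Cd8a*, with 35, 29, 36 and 20 counts, was not. The list of 7 B cell genes summed to 15.9 and 19.3 CPM in WT and 77.7 and 30.8 CPM in cKO, with 1 of 4 tested called higher. The 7 macrophage and monocyte genes summed to 36.4 and 45.3 against 98.3 and 55.3 CPM, with 2 of 7 called higher (*Lyz2* and *Cybb*). On the same list *Itgam* and *Cd68* went the other way, at -0.85 and -0.29, and neither was called. The 8 neutrophil genes summed to 0 and 3.58 against 38.3 and 23.4 CPM, with 3 of 4 called higher. Of 5 Treg genes, *Foxp3*, *Ctla4* and *Nrp1* were called higher. *Il2ra* and *Ikzf2* were not, with edgeR adjusted p of 0.0509 and 0.291. The sums were 399 and 318 against 734 and 954 CPM, and *Foxp3* alone went from a mean of 131 to 476 CPM. The study reports *Foxp3* derepressed in CD4+ T cells that are not true Treg cells. It found no significant difference in other Treg signature genes of splenic CD4+ T cells. The part of these cell types in the differences of *Adgrg5*, *Ccdc102a*, *Adgrb2*, *Adgre1*, *Adgre4*, *Cd81* and *Cd9* was not tested.

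**Figure D5:**
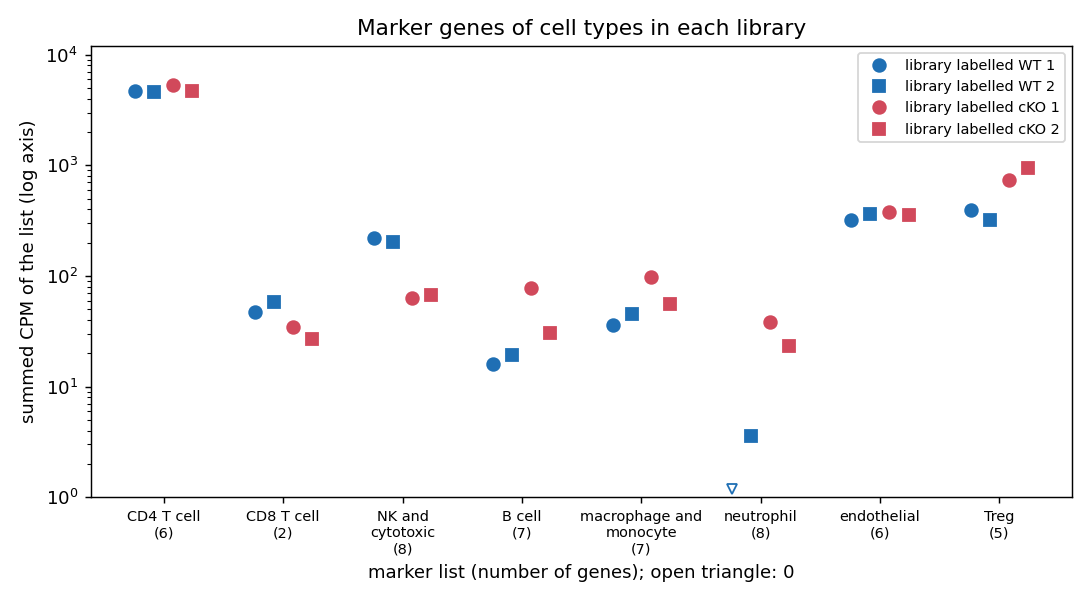
Summed CPM of each marker list in each library on a log axis; blue marks libraries labelled WT, red those labelled cKO, and the number of genes stands under each name. The CD4 T cell list stayed between 4566 and 5340 CPM, and the NK and cytotoxic list was lower in both libraries labelled cKO. The sums of the B cell, myeloid, neutrophil and Treg lists were higher, though not every gene on them was.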

How the data were processed

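RNA of sorted splenic CD4+ T cells was sequenced in 4 libraries. The authors aligned reads to mm10 with HISAT2 2.1.0 (version per the processing notes), counted them with HTSeq, and deposited raw counts of reads per gene symbol, unscaled; the annotation and strand setting are not given in the sources used here. Overlapping genes can therefore share or lose reads. HTSeq summary lines were kept out of all totals.

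Counts were analysed in R 4.3.3 with edgeR 4.0.16: filterByExpr, TMM factors, and the quasi-likelihood F test on genotype label over 4 libraries, two-sided, with no covariate and Benjamini-Hochberg adjustment over 12403 tested genes; calls have an adjusted p under 0.05. SE is the log2 fold change over the root of F, and 95% intervals use its moderated degrees of freedom. Pooled ratios use Clopper-Pearson intervals, which cover counting error only. DESeq2 1.42.0 was an alternative. The fit was tested on simulated data with known changes. Positions and exonic lengths are from GENCODE M21, promoters from RefSeq GRCm38.p6. Plots used matplotlib 3.10.9.

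The members and the gene lists were chosen with earlier results of these data known. Genes named were the 9 members; in the 500 kb window called genes and the nearest tested gene on each side; in other lists called genes and the 2 with the highest CPM; and the 3 genes that are no members nearest to *Adgrg5* in pattern. The gene that this rule names on 1 side of the window is not reported here. Other genes are named as examples chosen after their values were seen. Filter, scaling, test, replicate block and each library were varied singly. Counts of replicates were compared by chi-square, and neither pair was a duplicate (2.83 in WT and 6.68 in cKO, per degree of freedom).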

Additional observations from a re-analysis of the deposited data

How the results depend on the processing

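Over the 10 alternatives the log2 fold changes ran from -4.92 to -3.88 for *Adgrg5*, -4.45 to -4.20 for *Adgrb2* and -3.63 to -2.59 for *Ccdc102a*. Their groups do not overlap, which fixes the sign, and the members were selected on this contrast, so the ranges are a description. *Adgrl1* ran from -0.092 to 0.051 with a library left out, changing sign without cKO 1. The other 59 of 60 values of the 6 tested members kept their sign.

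The number of genes called, 533, was 1367 without the low-count filter (with 1 further adhesion GPCR gene, *Adgre4*, called) and 1165 with the replicate block. The samples share only a replicate number (correlation of their deviations within a number, 0.0642 across genes), and with the block the log2 fold changes were -4.29 for *Adgrg5*, -4.31 for *Adgrb2* and -3.01 for *Ccdc102a*. With a library left out, the number ran from 180 to 1790, the window from 0 to 2, further adhesion GPCR genes from 0 to 2, partner genes from 0 to 5 and signalling genes from 0 to 6, with a lone library assumed to vary like the other group. DESeq2 called 425 genes and 0 signalling genes. For these changes in count, the cause was not tested. A filter of 1 CPM, RLE factors or total counts moved no count by over 1.5 times. *Adgrg1* and *Adgrl2* had a fold change only without the filter and *Adgrl4* had none. Depth limits *Adgrg1*, *Adgrg3*, *Adgrl2* and *Adgrl4*, each with 14 counts or fewer in every library.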
